A study of Mus musculus with 6 samples.

Results

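The rows described here are the products of the miR-223 and miR-142 hairpins, chosen by name from the deposited table: mmu-miR-223-3p, mmu-miR-223-5p, mmu-miR-142a-3p, mmu-miR-142a-5p and mmu-miR-142b, written below without the prefix for mouse. They are 5 of 1482 rows, and all 5 passed the filter on low counts that left 614 rows for testing. The libraries are small RNA from mouse spinal cord, 3 with the label control and 3 with the label SCI, for spinal cord injury. By the labels, control mice had only a laminectomy, the removal of the bone over the cord, at the T10 level. Mice labelled SCI had the laminectomy and then a moderate contusion from a 10 g weight dropped 20 mm. Both groups shared the surgery, were killed on day 2 and gave about 1 cm of cord around T10. The sources used here do not give strain, sex, exact age or whether blood was flushed from the cord, which holds its vessels and resident microglia. Each library is taken to be 1 mouse, so that p-values measure the spread between animals and everything that differed between their libraries.

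MicroRNAs are short RNAs cut from a hairpin, and each arm of the hairpin (5p or 3p) can be loaded into an Argonaute protein. Bases 2 to 8, the seed, choose the messenger RNAs that are held down. miR-223 is a myeloid miRNA: the transcription factors PU.1 and C/EBP drive it in granulocytes and monocytes, it restrains neutrophil activation, and platelets carry it too. miR-142 is made in nearly all blood-forming lineages, lymphocytes and microglia included, and is used as a marker of leukocytes in a tissue. After a contusion, neutrophils and then monocytes enter the cord within days.

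The mature sequences are shown because the seeds set what each arm can target and because 2 of them show how rows of the table relate. They were taken from RefSeq on GRCm38.p6, where all 5 names matched, are written 5′ to 3′, and carry the seed in capitals.
mmu-miR-223-3p: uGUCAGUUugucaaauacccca
mmu-miR-223-5p: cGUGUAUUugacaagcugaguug
mmu-miR-142a-3p: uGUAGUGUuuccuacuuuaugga
mmu-miR-142a-5p: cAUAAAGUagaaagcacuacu
mmu-miR-142b: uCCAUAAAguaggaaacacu
The 5 seeds all differ, and 0 other rows of the table with a RefSeq sequence carry any of them. The 4 arms of miR-223 and miR-142a therefore stand for 4 separate sets of possible seed matches.

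Each arm pair comes from 1 hairpin, printed here with the arms in capitals so that their spacing can be seen.
Mir223: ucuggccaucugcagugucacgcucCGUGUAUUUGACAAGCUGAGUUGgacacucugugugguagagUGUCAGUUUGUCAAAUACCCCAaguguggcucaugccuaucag
Mir142: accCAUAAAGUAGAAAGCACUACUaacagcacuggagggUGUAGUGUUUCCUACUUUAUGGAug
The Mir223 hairpin lies on the plus strand at chrX:96242817-96242926, inside an exon of the noncoding gene F630028O10Rik by GENCODE M21. The Mir142 hairpin lies on the plus strand at chr11:87756864-87756927, within the noncoding host gene Mir142hg and outside its annotated exons. The Mir142b hairpin, at chr11:87756841-87756955, is annotated on the minus strand across the same bases. These positions are on GRCm38, the assembly that mm10 denotes, and mm10 is the build named in the submitters' processing notes.

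The miR-142b row adds no measurement of its own. Its counts were 3301, 2164 and 3256 in control-labelled libraries 1, 2 and 3 and 399, 281 and 795 in SCI-labelled libraries 1, 2 and 3, and miR-142a-3p had these counts in each library without a difference of 1 read. The sequences show how the rows relate. All 20 bases of miR-142b match the reverse complement of miR-142a-3p, starting at its base 1, and the Mir142 hairpin is contained whole in the reverse complement of the Mir142b hairpin. miR-142b also resembles the 5p arm. With base 1 of miR-142a-5p set against base 3 of miR-142b, 18 bases can be compared and 2 differ, A11G and G14A, with positions counted from the 5′ end of miR-142a-5p and its base written first. Among tested rows there were 4 sets with equal counts in all 6 libraries. In the other 3 sets, all of the miR-466 and miR-467 families, the mature sequences are identical, so the miR-142 pair was the only set of the 4 that joined opposite strands. Opposite-strand rows held near-equal counts elsewhere too. Only rows with a RefSeq sequence were searched, so pairs with a row that lacks one are not counted. Of those searched, 12 other pairs shared a run of at least 20 bases as reverse complements and held at least 60 counts in 1 of the rows. Of these 12 pairs, 6 agreed within 5% in every library. Whether reads were assigned without regard to strand is not stated in these sources. Below, the 2 rows are treated as 1 signal and called miR-142a-3p.

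The deposited labels have to be read with care. By the sample descriptions, the SCI-labelled samples belong to columns called Normal, and the control-labelled ones to columns called Control. miR-21a-5p, which is widely described as rising after tissue injury, was at 75100 to 129200 CPM (counts scaled to a common library total) in the control-labelled and 11200 to 12740 CPM in the SCI-labelled libraries. Every direction below is that of the labels as deposited, and whether labels and animals match was not tested. Total counts ran from 5568491 to 8889977 per library. All 8 listed neuron and all 4 oligodendrocyte miRNAs were in the table with counts. Control-labelled library 3 stood apart from the others of its group: skeletal muscle miR-133a-3p was at 1581 CPM there and at 128.7 and 171.4 CPM in libraries 1 and 2. The most abundant miRNA of the skeletal muscle list, miR-1a-3p, differed less, at 35195 CPM there and at 8025 and 11622 CPM in libraries 1 and 2. Results are therefore also given without control-labelled library 3.

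Both hairpins were much lower in the SCI-labelled libraries, on both arms. All 5 rows, which are 4 separate signals, were lower and past the test, where 23.1% of all 614 rows were. The groups were free of overlap in each of the 5, as was so for 28% of all rows in this direction. The 4 signals together took 0.167% to 0.267% of the counts of a control-labelled library and 0.0125% to 0.0247% of an SCI-labelled one. In bulk tissue, fewer cells of a type and less RNA per cell cannot be told apart.

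miR-223-3p, the main arm of its hairpin, was at 112.9, 132.5 and 95.26 CPM in control-labelled libraries 1, 2 and 3, on a scale corrected for library composition by TMM (the trimmed mean of M values). It was at 5.70, 10.7 and 8.95 CPM in SCI-labelled libraries 1, 2 and 3. The lowest control-labelled library was still 8.91 times the highest SCI-labelled one, the widest gap of the 4 signals, while the control-labelled libraries differed among themselves by at most 1.39 times. The difference was 13.5-fold (log2 -3.75, SE 0.29; edgeR quasi-likelihood adjusted p = 7.02e-05), from 114 ± 18.6 to 8.45 ± 2.54 CPM (SD, n = 3 each). Counts behind these levels were 705 to 809 in the control-labelled and 46 to 79 in the SCI-labelled libraries.

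miR-223-5p, the less abundant arm, was at 70.61, 92.87 and 27.91 CPM in control-labelled libraries 1, 2 and 3 and at 2.97, 5.58 and 5.55 CPM in SCI-labelled libraries 1, 2 and 3. It was lower in control-labelled library 3 than in libraries 1 and 2, a spread of 3.33 times, yet that library stayed above every SCI-labelled one. The difference was 13.5-fold (log2 -3.76, SE 0.48; edgeR adjusted p = 0.000646), with means of 63.8 ± 33.0 and 4.70 ± 1.50 CPM (SD, n = 3 each). Without control-labelled library 3 it was -4.08 on the log2 scale. SCI-labelled libraries held only 24, 36 and 49 reads of this arm.

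miR-142a-5p was the most abundant of the 5 rows in every library. It was at 1449, 2071 and 944.7 CPM in control-labelled libraries 1, 2 and 3 and at 80.79, 78.28 and 144.3 CPM in SCI-labelled libraries 1, 2 and 3. By count it ranked between 55 and 88 among the rows of a control-labelled library and between 196 and 231 in an SCI-labelled one. The difference was 14.7-fold (log2 -3.88, SE 0.38; edgeR adjusted p = 0.000206), from 1488 ± 564 to 101 ± 37.4 CPM (SD, n = 3 each). Only 6 of the 614 rows had a lower log2 difference, and miR-223-5p and miR-223-3p stood at places 10 and 11 in that order.

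miR-142a-3p was at 528.6, 391.8 and 383.4 CPM in control-labelled libraries 1, 2 and 3 and at 49.44, 43.56 and 90.06 CPM in SCI-labelled libraries 1, 2 and 3. The control-labelled libraries lay close together, within 1.38 times, and SCI-labelled library 3 was highest in its group, as it also was for miR-142a-5p but not for miR-223-3p. The difference was 7.11-fold (log2 -2.83, SE 0.32; edgeR adjusted p = 0.000441), from 435 ± 81.5 to 61.0 ± 25.3 CPM (SD, n = 3 each). It was the smallest of the 4 differences, and its place among all rows was 27 from the lowest. Without control-labelled library 3, the log2 differences of miR-223-3p, miR-142a-5p and miR-142a-3p were -3.82, -4.08 and -2.87, each still past the test.

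**Figure D1:**
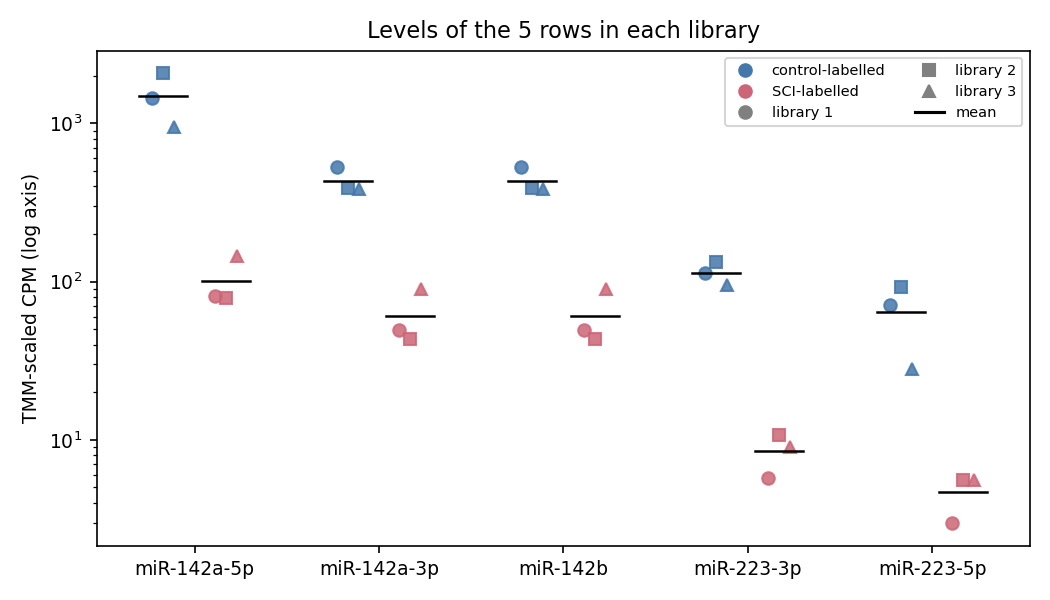
TMM-scaled CPM on a log axis for the 5 rows, with 1 symbol per library (circle, square and triangle for libraries 1, 2 and 3) and a bar at the mean of 3 libraries. In each row the 3 control-labelled libraries lie above the 3 SCI-labelled ones, and miR-142b repeats miR-142a-3p.

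**Figure D2:**
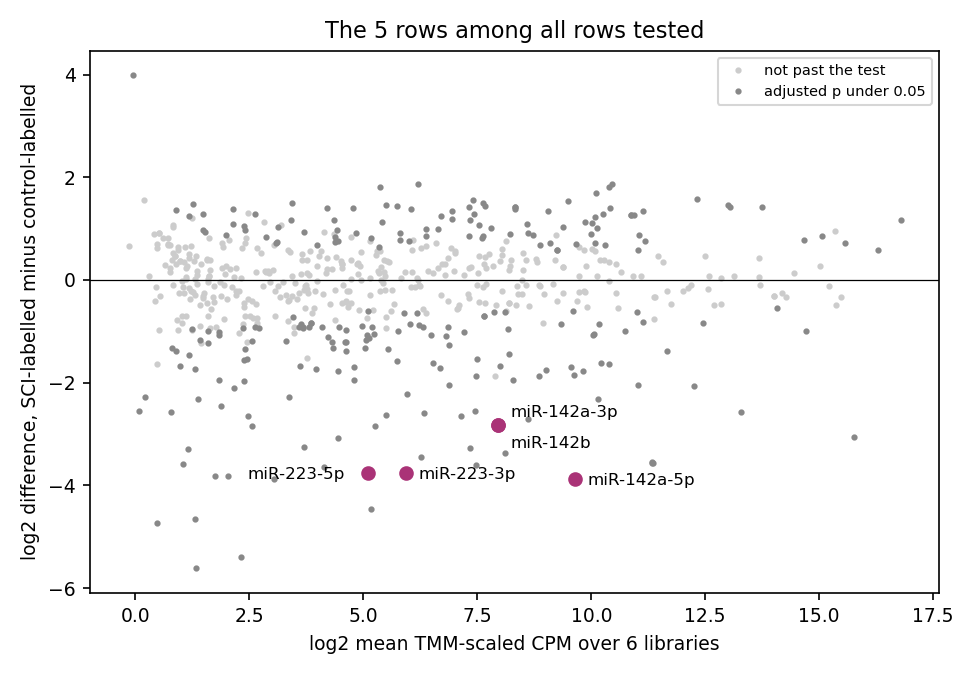
Log2 difference (SCI-labelled minus control-labelled) against log2 mean CPM for the 614 tested rows, with rows past the edgeR test in dark grey and the 5 rows in purple. The 5 rows lie between -3.88 and -2.83, with miR-142b hidden under miR-142a-3p.

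The order of the levels did not depend on the label. In every library miR-142a-5p was above miR-142a-3p, which was above miR-223-3p, which was above miR-223-5p. Mature lengths are 21 to 23 bases, levels were not scaled by length, and arms can be ligated with unequal efficiency. The part of length or ligation in this order was not tested. By mean ± SD, the neighbours miR-223-3p and miR-223-5p overlapped in both groups, and miR-142a-5p and miR-142a-3p overlapped in the SCI-labelled group but not in the control-labelled one. miR-142a-3p and miR-223-3p did not overlap in either group.

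The balance of the arms of miR-142a was less one-sided in the SCI-labelled libraries, a difference that missed the threshold. The 5p arm made up 73.3%, 84.1% and 71.1% of the hairpin's counts in control-labelled libraries 1, 2 and 3, and 62.0%, 64.2% and 61.6% in SCI-labelled libraries 1, 2 and 3. The groups did not overlap, and neither did their exact 95% binomial intervals, the nearest being 70.3% to 72.0% in control-labelled library 3 and 60.8% to 67.6% in SCI-labelled library 2. These intervals cover counting error only. The mean share was 76.2% ± 6.95 against 62.6% ± 1.43 (SD, n = 3 each; exact two-sided permutation p = 0.1, the smallest that 3 against 3 libraries can give). In edgeR's test of arm usage, the log2 change of 5p minus that of 3p was -1.05, with an adjusted p of 0.0962 over 179 hairpins, of which 30.2% were called. Without control-labelled library 3 the log2 change was -1.20 and the adjusted p 0.0403 by edgeR. With any other single library left out it missed the threshold, at -1.24 to -0.66 with edgeR adjusted p of 0.0983 to 0.375.

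The arms of miR-223 kept no such order by label. The 5p share was 38.5%, 41.2% and 22.7% in control-labelled libraries 1, 2 and 3 and 34.3%, 34.3% and 38.3% in SCI-labelled libraries 1, 2 and 3. Control-labelled library 3 was the low one, with an interval of 20.1% to 25.3% that lies apart from those of libraries 1 (35.6% to 41.4%) and 2 (38.5% to 44.0%). The group means were 34.1% ± 10.0 and 35.6% ± 2.30 (SD, n = 3 each), with an exact permutation p of 1. The arm usage test gave a log2 change of -0.01 and an adjusted p of 0.989 by edgeR. At 70 to 128 reads of the hairpin per SCI-labelled library, intervals were as wide as 23.4% to 46.6%.

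**Figure D3:**
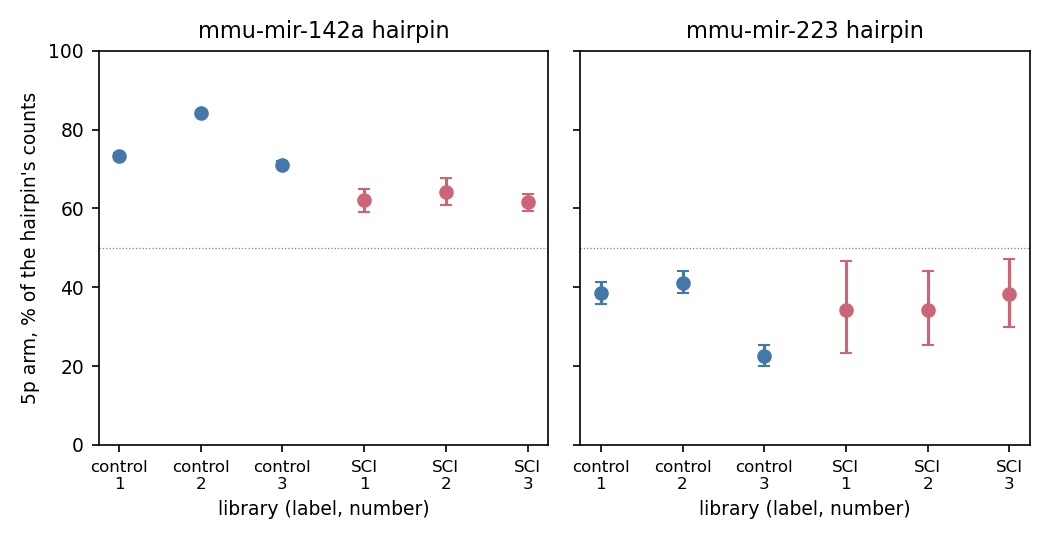
Share of each hairpin's counts on the 5p arm, in percent, for each library, with exact 95% binomial intervals (blue control-labelled, red SCI-labelled; the dotted line marks an even split). For miR-142a the control-labelled libraries lie at 71.1% or above and the SCI-labelled ones at 64.2% or below, and for miR-223 control-labelled library 3 lies below all others.

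The ratio of the myeloid to the pan-leukocyte miRNA was compared next, as a quantity within a library that needs no scaling. For every 100 counts of both miR-142a arms there were 5.71, 5.38 and 7.17 counts of miR-223-3p in control-labelled libraries 1, 2 and 3. In SCI-labelled libraries 1, 2 and 3 there were 4.38, 8.78 and 3.82. The SCI-labelled values lay on both sides of the control-labelled ones. On the log2 scale the mean was -4.05 ± 0.22 and -4.24 ± 0.64 (SD, n = 3 each), a difference of -0.20 (exact two-sided permutation p = 0.6), so a change of the ratio was not detectable beside the spread of the SCI-labelled libraries.

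Other miRNAs of immune cells were lower as well, less so for most. Of a list of 14 leukocyte miRNAs, all in the table, 10 were tested, 7 were lower and past the test (23.1% of all rows were), 0 were higher (16.3% of all rows were) and 3 did not pass. DESeq2 also called 7 lower. The median log2 difference of the 10 was -1.04, against -0.07 over all rows tested. miR-147-3p, an inducible brake on macrophage activation, was at 21.8, 17.2 and 7.07 CPM in control-labelled libraries 1, 2 and 3 and at 0.991, 0.775 and 1.25 CPM in the SCI-labelled ones. It was 14.7-fold lower and its 5p partner 14.1-fold lower, close to miR-142a-5p and miR-223-3p, on only 5 to 11 and 2 to 5 SCI-labelled reads.

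miR-155-5p, induced by NF-kB in activated macrophages and lymphocytes, was at 127.9, 101.6 and 78.0 CPM in control-labelled libraries 1, 2 and 3 and at 15.98, 30.1 and 19.6 CPM in the SCI-labelled ones, with no overlap (4.69-fold lower; edgeR adjusted p = 0.00086). The NF-kB feedback miRNAs miR-146b-5p, miR-146b-3p and miR-146a-5p had log2 differences of -1.38, -1.23 and -0.86. miR-150-5p, a miRNA of mature lymphocytes, was at 276.7 to 286.4 CPM in the control-labelled and 176.2 to 187.5 CPM in the SCI-labelled libraries, only 1.55-fold lower. miR-342-3p had means of 355 ± 8.91 CPM and 356 ± 72.1 CPM (SD, n = 3 in each group), and miR-342-5p and miR-150-3p had log2 differences of -0.13 and 0.23; these 3 did not pass. The 4 members that were not tested were miR-511-3p and miR-511-5p, miR-155-3p and miR-146a-3p, which had between 0 and 45 counts in any library. With a library left out, the filter kept 2 of them in some fits: miR-511-3p was then called lower in 4 fits, with log2 differences of -2.50 to -2.17, and miR-155-3p in 1, without control-labelled library 3 (-3.62; edgeR adjusted p = 0.000514). The calls of miR-147-3p, miR-147-5p and miR-155-5p held without any single library, and without SCI-labelled library 3 these 3 were the only ones left of the list. The other 4 calls lay near the threshold, and leaving out a library could end them by edgeR while the difference kept its direction. Dropping control-labelled library 1, or SCI-labelled 1, 2 or 3, ended the call of miR-150-5p (log2 -0.63 to -0.56 there, adjusted p up to 0.111). For miR-146a-5p the libraries were control-labelled 1 and 2 and SCI-labelled 1 and 3 (log2 -0.81 to -0.69, up to 0.0938), and for miR-146b-5p SCI-labelled 2 and 3 (-1.39 and -1.28, up to 0.0689). For miR-146b-3p they were all but control-labelled 3 (log2 -1.49 to -0.89, up to 0.109).

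**Figure D4:**
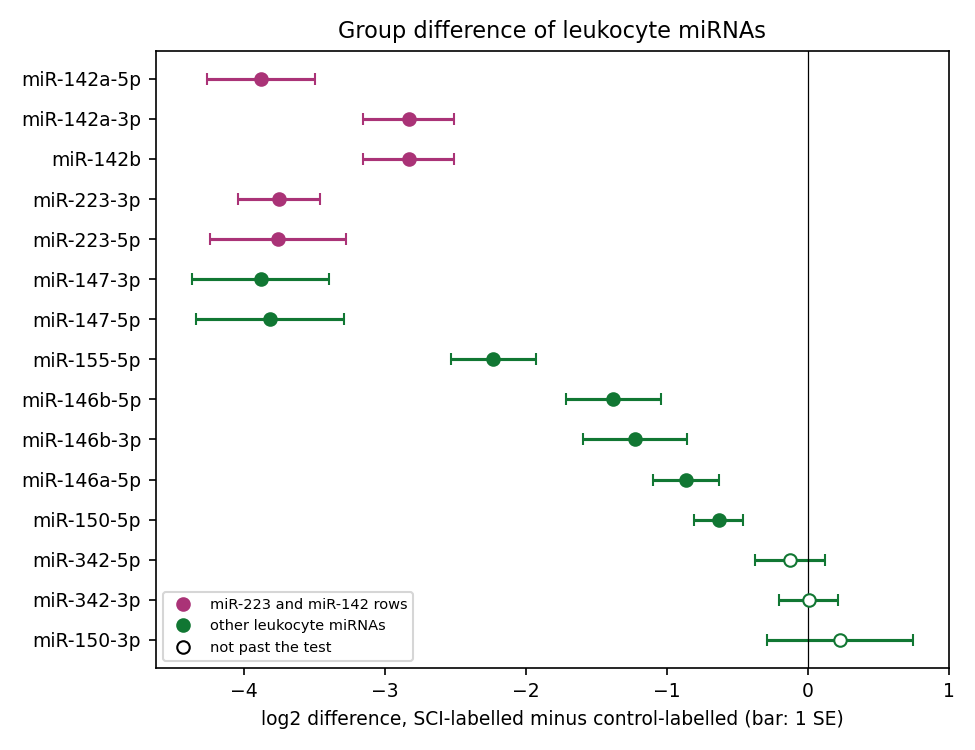
Log2 difference (SCI-labelled minus control-labelled) with a bar of 1 SE for the 5 rows (purple) and the 10 tested members of the leukocyte list (green), with open symbols where the adjusted p missed 0.05. miR-147 lies with miR-223 and miR-142a-5p, miR-155-5p at -2.23 and the miR-342 arms near 0.

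Markers of red blood cells and fibroblasts were lower along with these rows, those of neurons were in part higher, and other lists held no call. For scale, 23.1% of all rows were called lower and 16.3% higher. Of 7 red blood cell miRNAs, 6 were tested and all 6 were lower. Their summed level was 14020 to 43090 CPM in the control-labelled and 3024 to 6331 CPM in the SCI-labelled libraries, and none was at 0 in all libraries. The miR-486 rows among these 6 had near-equal levels in each library, so the count and the sum may hold the same signal more than once. All 5 fibroblast miRNAs were lower (1932 to 3515 against 600.3 to 1124 CPM). Of 8 neuron miRNAs, 3 were higher and 5 did not pass (12970 to 16050 against 32620 to 38200 CPM). The sum follows abundant rows most, such as miR-218-5p with means of 7503 and 20088 CPM. Among those that did not pass, miR-124-3p had a log2 difference of -0.52 and the others had positive ones. In the other lists, 0 passed of 4 oligodendrocyte, 2 endothelial and 5 skeletal muscle miRNAs. The part of these cells in the difference of miR-223 and miR-142 was not tested. With the red blood cell and skeletal muscle rows left out before scaling, miR-223-3p had a log2 difference of -3.75 and miR-142a-5p of -3.88. That step changes the scaling only and cannot take away reads of miR-223 or miR-142 that come from such cells.

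Set against the red blood cell miRNA miR-451a within each library, the groups stayed apart for miR-142a-5p and overlapped for miR-223-3p. miR-451a itself was at 26650, 18560 and 6411 CPM in control-labelled libraries 1, 2 and 3, a spread of 4.16 times, where miR-223-3p spread by 1.39 times. There were 54.4, 111.6 and 147.4 counts of miR-142a-5p per 1000 of miR-451a in control-labelled libraries 1, 2 and 3 and 37.2, 39.0 and 31.8 in SCI-labelled libraries 1, 2 and 3. For miR-223-3p there were 4.24, 7.14 and 14.9 against 2.63, 5.32 and 1.97 counts per 1000, and SCI-labelled library 2 lay above control-labelled library 1. The separation of miR-142a-5p depended on the marker. miR-451a was 5.9-fold lower, the least of the 6 tested red blood cell rows, and the others were 6.29-fold to 11.9-fold lower. Against miR-486a-5p or miR-144-5p the groups overlapped for miR-142a-5p. SCI-labelled library 1 held 80.79 CPM of miR-142a-5p to 263.3 CPM of miR-486a-5p, and control-labelled library 1 held 1449 to 5294 CPM. No test was made of these ratios.

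The rows whose profile over the 6 libraries was most like a member were found by the root mean square distance between log2 CPM values centred on each row's mean, among 265 rows of at least 50 CPM on average, with the members left out. For miR-223-3p they were miR-15b-5p at 0.33, miR-19b-3p at 0.35, miR-144-5p at 0.38, miR-214-3p at 0.40 and miR-486a-5p at 0.41, where the median row was at 1.95. Its own 5p arm was at 0.41 and miR-142a-5p at 0.40. For miR-142a-5p they were miR-486a-5p at 0.32, miR-486b-3p at 0.32, miR-144-5p at 0.32, miR-486a-3p at 0.33 and miR-15b-5p at 0.35, against a median of 2.04. The miR-486 and miR-144 rows are on the red blood cell list, and the 3 miR-486 rows had near-equal levels, with means of 4741 to 4859 CPM in the control-labelled group. miR-142a-5p was at 0.60 from its own 3p arm, farther than from any of these 5 rows. As the 6 libraries fall into 2 groups, rows with a like group difference come out near each other, and each of the 7 rows named was between 9.68-fold and 12.2-fold lower.

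**Figure D5:**
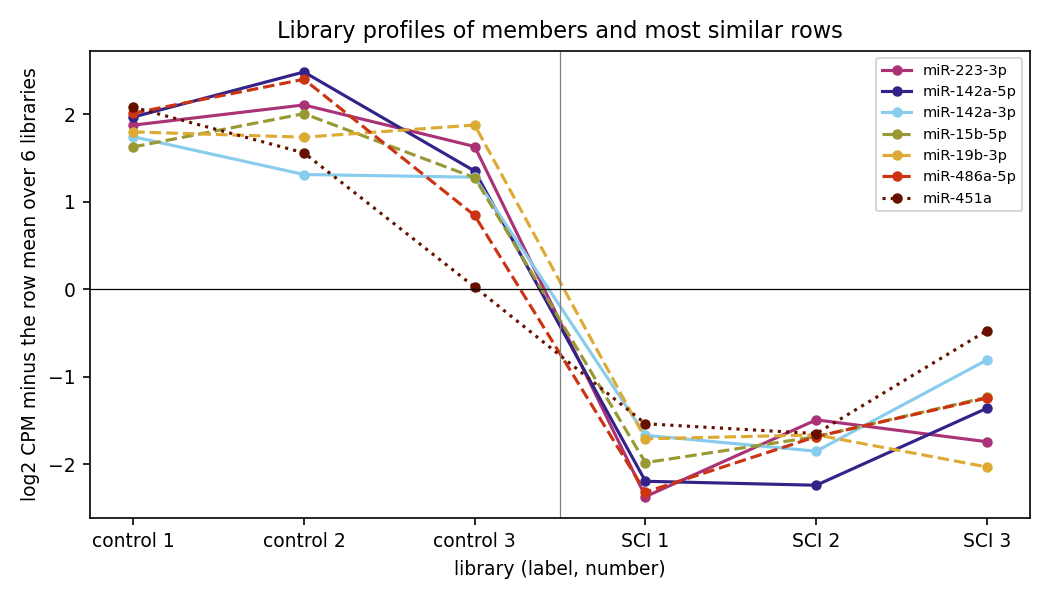
Log2 CPM minus the row's mean over 6 libraries, by library, for 3 of the members (solid), 3 of the most similar rows (dashed) and miR-451a (dotted); lines join the points of a row and mark no order. All but miR-451a stay well above 0 in control-labelled library 3, and miR-142a-3p and miR-451a are the highest of the rows drawn in SCI-labelled library 3.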

How the data were processed

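Small RNA was sequenced from 6 samples of mouse spinal cord tissue, from 3 µg of total RNA each per the labels. The authors deposited 1 table of raw read counts and TPM per miRNA; the deposited TPM values equal CPM from the column total, to within 2.74e-05, with no length term. Bowtie and mm10 are named in the submitters' processing notes; the miRBase release and the handling of multiple matches are not stated there or in the labels. Columns were matched to samples through their descriptions.

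Differences between the labels came from edgeR 4.0.16 in R 4.3.3, with filterByExpr (minimum count 10), TMM scaling and the robust quasi-likelihood F test on group alone. Benjamini-Hochberg adjustment covered 614 rows, at a threshold of 0.05. A standard error is the size of the log2 difference over the square root of F. The balance of arms was tested by diffSpliceDGE of edgeR. A test of the 5p arm against its hairpin was planned, but it recovered 26.7% of 30 hairpins with a 4-fold arm shift in simulated data, against 100% for the hairpin-level test over both arms, which replaced it. Of the simulated calls of that test, 6.25% were unshifted. For the group comparison, simulated on 614 rows, 57.7% of 2-fold and 97.8% of 4-fold changes were recovered, and 2.67% of calls were unchanged rows. Likeness used log2 CPM with a prior count of 2. DESeq2 1.42.0 and limma 3.58.1 (voom with quality weights, and log2(TPM + pseudocount)) were alternatives, with other scalings, no filter, the replicate block and left-out libraries.

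The members, lists and tests were chosen with earlier results of these data known. Rows named are the members, the tested leukocyte list, the 5 rows nearest to miR-223-3p and to miR-142a-5p and the leading markers. Added after their values were seen were miR-21a-5p, miR-133a-3p, miR-124-3p, the miR-466 and miR-467 families and the untested list members. No 2 libraries of a group agreed within sampling noise, with a chi-square per degree of freedom of 186.5 to 1557.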

Additional observations from a re-analysis of the deposited data

How the results depend on the processing

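The 4 signals were lower and past the test under every alternative run. Their log2 differences ranged from -3.90 to -2.80 for miR-223-3p, -4.08 to -2.25 for miR-223-5p, -4.20 to -3.57 for miR-142a-5p and -3.20 to -2.59 for miR-142a-3p and miR-142b. The values nearest to 0 for miR-223 came from limma on log2(TPM + 10), which shrinks low rows by construction. Largest adjusted p-values over alternatives were 0.00144, 0.00758, 0.00321 and 0.00409. Of all rows, 100 were higher and 142 lower; leaving out 1 library gave 54 to 152 higher and 87 to 179 lower, with 54 and 87 without SCI-labelled library 3, 63 higher without SCI-labelled library 1 and 152 higher without control-labelled library 3. Upper quartile scaling gave 120 and 120, the library total 75 and 144, and median log2 differences of all rows ran from -0.15 to 0.04 over the scalings. Leukocyte list members called lower numbered 3 to 8 when 1 library was left out, 3 without SCI-labelled library 3; the filter was rerun each time, so these counts include miR-511-3p or miR-155-3p in 5 of the fits. The arm change of miR-142a ranged from -1.24 to -0.66 without single libraries and passed only without control-labelled library 3 (-1.20); it was -0.74 with miR-142b counts added to the 5p arm, and the 5p arm against the whole hairpin gave an adjusted p of 0.9999 by edgeR. That of miR-223 ranged from -0.25 to 0.24 without single libraries, 0.0195 with no filter and 0.14 with the replicate block, none past the test; the cause was not tested. The log2 ratio difference of miR-223-3p to miR-142a was -0.89 against the 3p arm alone and 0.08 against the 5p arm alone. It was -0.56 to 0.04 without single libraries. The value of -0.56 came without SCI-labelled library 2, where the groups did not overlap (exact permutation p = 0.1). The labels state no pairing by replicate number. Deviations of same-numbered libraries correlated at -0.26, 0.17 and -0.18, and those of differently numbered ones at -0.22 to 0.33. These numbers, also used for the replicate block, are those of the sample titles, and the column names number the libraries differently. By column number, control-labelled libraries 1 and 2 match SCI-labelled libraries 2 and 3, at 0.12 and 0.07. Control-labelled library 3 then has no match. With 3 libraries in each group these values cannot exclude a pairing. With the replicate block edgeR called 78 rows higher and 112 lower and 5 leukocyte list members lower. Among the members depth limits miR-223-5p most, at 24 to 49 reads in SCI-labelled libraries; miR-147-3p and miR-147-5p rest on 11 or fewer.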
